A study of Homo sapiens with 208 samples.

Results

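The Frizzled receptors were followed across the time courses of a gefitinib-sensitive and a gefitinib-resistant lung adenocarcinoma line. The family was taken as all array probes whose RefSeq accession belongs to FZD1 to FZD10, which gave 14 probes for 10 genes, of 16961 genes with a probe in all. PC9 is a lung adenocarcinoma line that depends on a mutated EGF receptor, and PC9M2 (named PC9GRM2 in the sample labels) is a resistant line derived from it. The labels describe how a resistant line named PC9GR was isolated from clones that survived repeated low doses of gefitinib, and do not say how PC9GRM2 relates to it. The results therefore describe 1 resistant line. After starvation for 48 h, cells of both lines were left untreated, given 0.5 μM gefitinib (an inhibitor of the EGF receptor kinase), given 100 ng/ml EGF, or given both. Each of these 8 groups is a time course of 26 arrays from 0 to 24 h. A time point of a group is a single array, and the time points therefore stand in for replicates and the p-values measure the spread between time points. Gefitinib was added before the 0 h sample.

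Frizzled proteins are serpentine receptors of the cell surface that bind Wnt ligands through an extracellular cysteine-rich domain. Together with the co-receptors LRP5 and LRP6 they recruit Dishevelled and stabilise β-catenin, and with other partners they feed the planar cell polarity and calcium branches. Their number at the surface is set in part by the ubiquitin ligases ZNRF3 and RNF43, which R-spondins and the LGR receptors restrain. By sequence FZD1, FZD2 and FZD7 form a subfamily, as do FZD5 and FZD8, FZD4, FZD9 and FZD10, and FZD3 and FZD6.

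Of the 8 genes with a tested probe, 4 have a promoter in the RefSeq table used here (GRCh38.p14), and all 4 are printed. The choice did not depend on the response to gefitinib, with which FZD1 rose and FZD4, FZD5 and FZD9 fell on the probes named below. Each sequence runs 5′ to 3′ on the strand of the gene, from 250 bases before the transcription start to 50 bases from it. Capitals mark 2 searched motifs on either strand, the TCF/LEF core CTTTG and the GC box GGGCGG, and overlapping GC boxes run together.
FZD1 (chr7:91264183-91264482, plus strand): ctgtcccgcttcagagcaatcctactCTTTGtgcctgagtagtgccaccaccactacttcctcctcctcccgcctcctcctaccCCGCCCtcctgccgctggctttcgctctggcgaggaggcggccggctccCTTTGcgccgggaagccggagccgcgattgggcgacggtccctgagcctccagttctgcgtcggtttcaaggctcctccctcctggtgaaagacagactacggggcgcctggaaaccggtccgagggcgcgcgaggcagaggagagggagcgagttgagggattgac
FZD4 (chr11:86955346-86955645, minus strand): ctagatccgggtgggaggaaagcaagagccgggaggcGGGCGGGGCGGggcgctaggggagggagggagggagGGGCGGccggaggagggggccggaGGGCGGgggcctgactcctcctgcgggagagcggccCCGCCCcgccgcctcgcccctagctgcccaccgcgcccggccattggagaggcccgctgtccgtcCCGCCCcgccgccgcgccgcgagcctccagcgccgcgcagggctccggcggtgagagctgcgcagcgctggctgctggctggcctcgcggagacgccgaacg
FZD5 (chr2:207769857-207770156, minus strand): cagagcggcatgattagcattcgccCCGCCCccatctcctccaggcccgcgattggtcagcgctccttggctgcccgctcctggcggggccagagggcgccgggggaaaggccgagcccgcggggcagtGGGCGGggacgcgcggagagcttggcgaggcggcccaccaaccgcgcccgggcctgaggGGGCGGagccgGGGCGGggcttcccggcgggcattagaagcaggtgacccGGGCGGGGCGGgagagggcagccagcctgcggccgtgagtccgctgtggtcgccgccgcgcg
FZD9 (chr7:73433528-73433827, plus strand): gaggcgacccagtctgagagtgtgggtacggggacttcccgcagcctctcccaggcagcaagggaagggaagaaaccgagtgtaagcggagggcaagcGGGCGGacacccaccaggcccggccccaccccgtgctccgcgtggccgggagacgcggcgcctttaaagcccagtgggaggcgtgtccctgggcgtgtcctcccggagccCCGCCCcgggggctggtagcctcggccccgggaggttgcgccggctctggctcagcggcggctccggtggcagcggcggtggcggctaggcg
The TCF/LEF core occurred at 2 places in the window of FZD1 and in none of the other 3 windows, and 47.5% of all 35116 promoters in the table hold it. The GC box was found in all 4 windows, against 45.0% of all promoters, and these windows were rich in G and C (65.7% for FZD1, 79.7% for FZD4, 77.0% for FZD5 and 73.7% for FZD9, against a median of 58.7% over all promoters). An ETS core (CCGGAA, in 17.2% of all promoters), an AP-1 site (TGANTCA, 7.71%), an E-box (CACGTG, 7.26%) and a forkhead core (TAAACA, 12.3%) were searched on both strands as well and matched none of the 4 windows. A match or its absence describes letters in these windows and was not compared with any measured binding.

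The values are log2 signals after quantile normalization over all arrays. Each slide carried the 4 treatments of 1 line at 1 time point, on 52 slides, and each treatment always took the same place on the slide, so that treatment and place cannot be told apart. The lines shared no slide and no scan day (8 scan days for PC9 and 9 for PC9M2), so that line and scan period cannot be told apart either. On an array, 24464 to 35938 features were well above background. Saturated features numbered 183 to 1616 on the PC9 arrays and 0 on each PC9M2 array, so that the scanned signal also differed between the lines. No array held a saturated Frizzled spot, and the part of this difference in the line comparisons was not tested. The untreated PC9M2 array at 11 h stood apart from its course: its differences from the mean of the 2 neighbouring time points had an SD of 1.11 log2 over 29929 probes outside the family, against a median of 0.422 over all arrays and 0.888 for the next highest. It held the highest untreated PC9M2 signal of 7 of the 12 tested Frizzled probes, and of 23.9% of all tested probes. Without it no Frizzled probe gained or lost a call in a comparison of lines or treatments. Of 24 marker genes with a probe, the 7 epithelial ones, EPCAM and CDH1 among them, were well above background on all arrays. None of the 5 fibroblast markers passed the filter described below. Of the lung lineage genes, NAPSA was well above background on 207 arrays, SFTPC on 206, SFTPB on 89 and the factor NKX2-1 on 13. The leukocyte gene PTPRC did so on 26 arrays, whereas CD68 and the endothelial gene VWF were well above background on all arrays. The line and gefitinib comparisons also moved some of these genes, such as VWF (-1.01 between the untreated lines and 1.76 for gefitinib in PC9), PECAM1 (-1.50 and -0.17) and CD68 (-0.81 and 0.32), and their part in the results was not tested.

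Tests took in the probes that stood well above background in 1 time course or more on a minimum of 13 of its 26 arrays, which 12 of the 14 Frizzled probes and 29941 of 41000 probes did. FZD8 was well above background on 1 array of the series and FZD10 on 6, and neither was tested. Among the tested probes, 9 were well above background on all arrays, FZD5 probe A_24_P148503 on 206, FZD4 probe A_24_P278621 on 130 and FZD1 probe A_23_P134502 on 125. FZD1, FZD4 and FZD5 have more than 1 probe, and each probe is given here. Levels of different probes are not compared with each other.

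**Figure D1:**
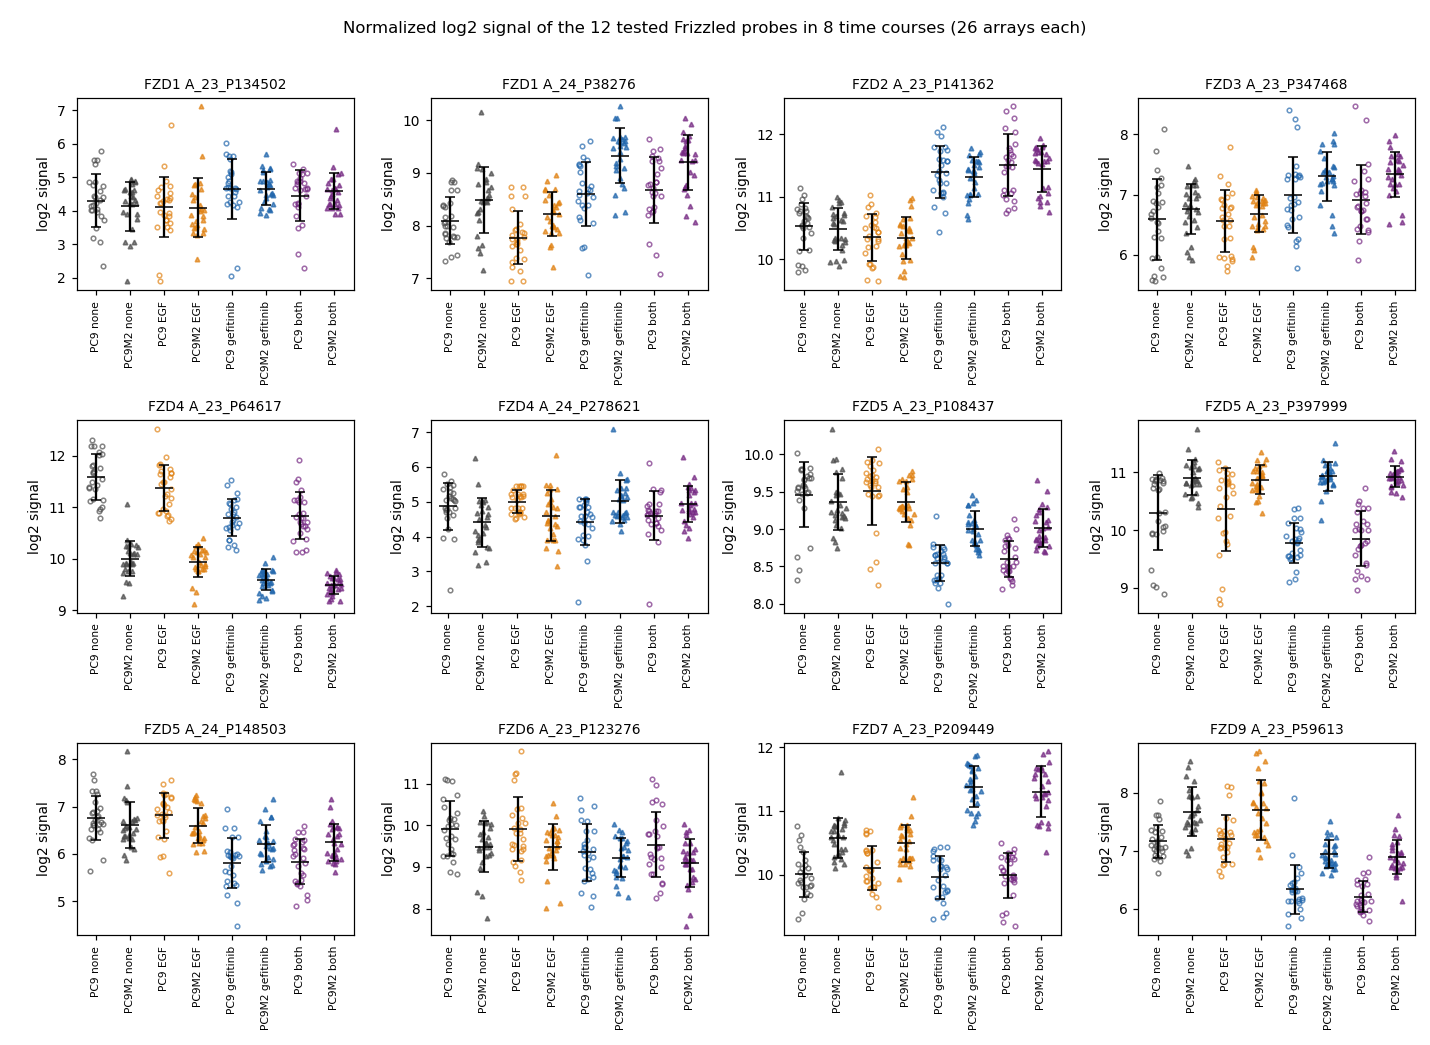
Normalized log2 signal (vertical axes, a separate range per panel) of the 12 tested Frizzled probes on each array, in columns by line and treatment (open circles PC9, filled triangles PC9M2, horizontal marks with bars the mean and SD of 26 arrays, "both" meaning EGF and gefitinib). FZD7 under gefitinib alone lies at 10.79 or above in PC9M2 and at 10.44 or below in PC9, and FZD4 probe A_23_P64617 lies lower in PC9M2 under each treatment.

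The first question was which receptors differ between the resistant and the parental line. FZD7, FZD9, FZD1 (probe A_24_P38276) and FZD5 (probe A_23_P397999) were higher in PC9M2 under all 4 treatments, and FZD4 (probe A_23_P64617) was lower under all 4. Of these calls, that of FZD5 was lost without treatment (adjusted p = 0.0922) and with EGF (adjusted p = 0.298) once the variance was inflated for autocorrelation, as was that of FZD7 with EGF (adjusted p = 0.0973). With scan day as a random block, FZD1 was lost without treatment (adjusted p = 0.117) and with both agents (adjusted p = 0.0663), and FZD5 with EGF (adjusted p = 0.054). The difference at each matched time point was averaged and tested by limma, and a probe was called at a Benjamini-Hochberg adjusted p under 0.05 over all tested probes. Without treatment, 4 of the 12 Frizzled probes were called higher in PC9M2, against 33.0% of all tested probes, and 3 were called lower, against 32.4%. With gefitinib 8 were higher (background 32.8%) and 1 was lower (30.7%). With EGF 4 were higher (34.8%) and 3 were lower (33.0%), and with both agents 7 were higher (33.9%) and 2 were lower (32.2%). Since most probes on the array differed between the lines, these counts are read only beside those shares. The median difference of the 12 probes was -0.07 log2 without treatment and 0.43 with gefitinib, against 0.01 and 0.02 over all tested probes. These 12 include several probes of FZD1, FZD4 and FZD5 and are not separate genes. The 8 called higher with gefitinib include all 3 FZD5 probes and FZD4 probe A_24_P278621 (0.60), whereas FZD4 probe A_23_P64617 (-1.20) was lower. The arrays measured bulk RNA, so that a change in the number of expressing cells and a change in the RNA per cell cannot be told apart.

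**Figure D2:**
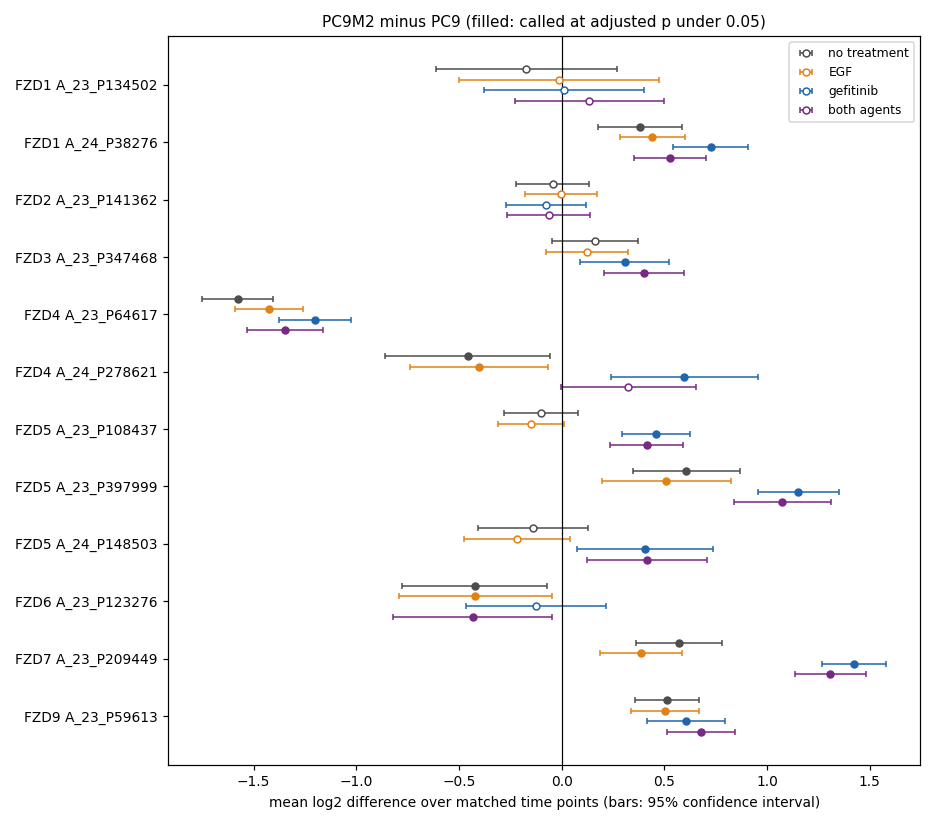
Mean log2 difference between PC9M2 and PC9 (horizontal axis) for each tested Frizzled probe under 4 treatments, with 95% confidence intervals over the matched time points; filled points passed an adjusted p of 0.05. FZD4 probe A_23_P64617 lies at -1.20 or below under each treatment, and FZD7 moves from 0.57 without treatment to 1.42 with gefitinib.

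The second question was how the receptors respond to gefitinib. FZD2 and FZD1 (probe A_24_P38276) rose in both lines, with and without EGF, as did FZD3. FZD9, FZD6, FZD4 (probe A_23_P64617) and FZD5 (probes A_23_P108437 and A_24_P148503) fell in both. FZD7 rose in PC9M2, and its average over 24 h was not called in PC9. Of the 24 Frizzled values without EGF over both lines, 5 lost their call once the variance was inflated for autocorrelation. With time points 3 h apart 8 lost it, and with EGF the losses were 3 and 2 of 24. Without EGF, calls over all probes fell as well, from 20353 to 16397 and 13048 in PC9 and from 19068 to 15509 and 14346 in PC9M2. In PC9, 3 Frizzled probes were higher with gefitinib than without treatment (background 34.1%) and 7 were lower (33.9%), whereas in PC9M2 6 were higher (31.9%) and 5 were lower (31.7%). In cells that also received EGF, which are separate arrays on the same slides, the counts in PC9 were 3 higher (37.6%) and 7 lower (38.3%), and in PC9M2 6 higher (35.9%) and 5 lower (36.6%). The median difference of the 12 probes was -0.49 log2 in PC9 and 0.27 in PC9M2, against 0.01 and 0.00 over all tested probes. These medians and counts pool several probes of FZD1, FZD4 and FZD5, which are not separate genes. FZD4 probe A_24_P278621 gave -0.45 in PC9 and 0.60 in PC9M2, and -0.05 and 0.06 with normexp background correction.

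**Figure D3:**
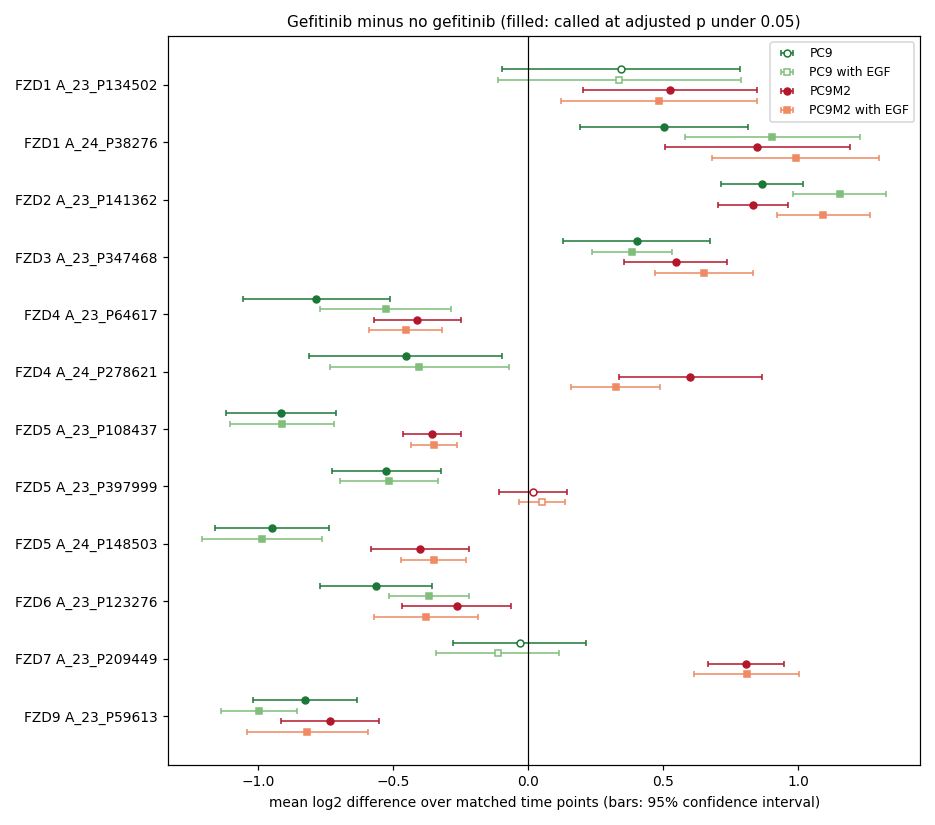
Mean log2 difference between cells with and without gefitinib (horizontal axis) for each tested Frizzled probe, in PC9 and PC9M2 without EGF (circles) and with EGF (squares), with 95% confidence intervals over the matched time points; filled points passed an adjusted p of 0.05. FZD2 lies between 0.83 and 1.15 in the 4 settings, FZD9 between -1.0 and -0.73, and FZD7 near 0 in PC9 and at 0.81 in PC9M2.

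Whether the response itself differed between the lines was tested as the difference of the 2 responses at each time point. Without EGF 7 Frizzled probes had a more positive response in PC9M2 (background 14.6%) and 0 a more negative one (15.3%). With EGF 6 were more positive (21.2%) and 0 more negative (23.1%). The probes without EGF were those of FZD7, all 3 of FZD5, both of FZD4 and FZD1 probe A_24_P38276, and those with EGF were FZD7, all 3 of FZD5, FZD4 probe A_24_P278621 and FZD3.

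In the subfamily of FZD1, FZD2 and FZD7, FZD7 showed the largest difference between the lines under gefitinib alone among the 12 probes (1.42), and with both agents FZD4 probe A_23_P64617 (-1.35) exceeded it (1.31). FZD7 is a receptor for β-catenin signalling that is also known from epithelial stem cells. Its signal ran from 9.30 to 10.77 (median 9.95) in untreated PC9 and from 10.10 to 11.61 (median 10.59) in untreated PC9M2, where the highest value came from the array at 11 h and the next was 10.89. With gefitinib it ran from 9.31 to 10.44 (median 10.04) in PC9 and from 10.79 to 11.87 (median 11.41) in PC9M2. The lines overlapped without treatment, with EGF and with both agents (down to 10.36 in PC9M2 and up to 10.50 in PC9), and did not overlap with gefitinib alone. In PC9M2 gefitinib raised FZD7 by 0.81 (SE 0.07, adjusted p = 5.31e-11) at 26 of 26 time points, and by 0.81 (SE 0.09, adjusted p = 1.5e-08) at 25 of 26 with EGF present. In PC9 the mean difference was -0.03 (95% confidence interval -0.28 to 0.215, n = 25 time points, since 1 array had an outlier-flagged spot, adjusted p = 0.83).

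That average in PC9 joined changes of opposite sign. In the first 13 time points (0 to 11 h) FZD7 was higher with gefitinib in PC9 by 0.45 (adjusted p = 0.002), and in the last 13 (12 to 24 h) it was lower by a log2 difference of -0.55 (adjusted p = 0.000206). The arrays with EGF gave 0.39 (adjusted p = 0.00014) and -0.61 (adjusted p = 2.75e-05). In PC9M2 the difference was 0.95 (adjusted p = 2.04e-05) in the first and 0.66 (adjusted p = 3.28e-08) in the last 13 time points, so that FZD7 stayed above the untreated course there. The difference between the responses of the lines was 0.84 (SE 0.10, adjusted p = 7.68e-07) over all time points, 0.50 (adjusted p = 0.0343) in the first and 1.21 (adjusted p = 4.43e-07) in the last 13. Without treatment the difference between the lines was 0.86 (adjusted p = 1.32e-05) in the first 13 time points and 0.26 (adjusted p = 0.0933) in the last 13, where FZD7 was not called.

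**Figure D4:**
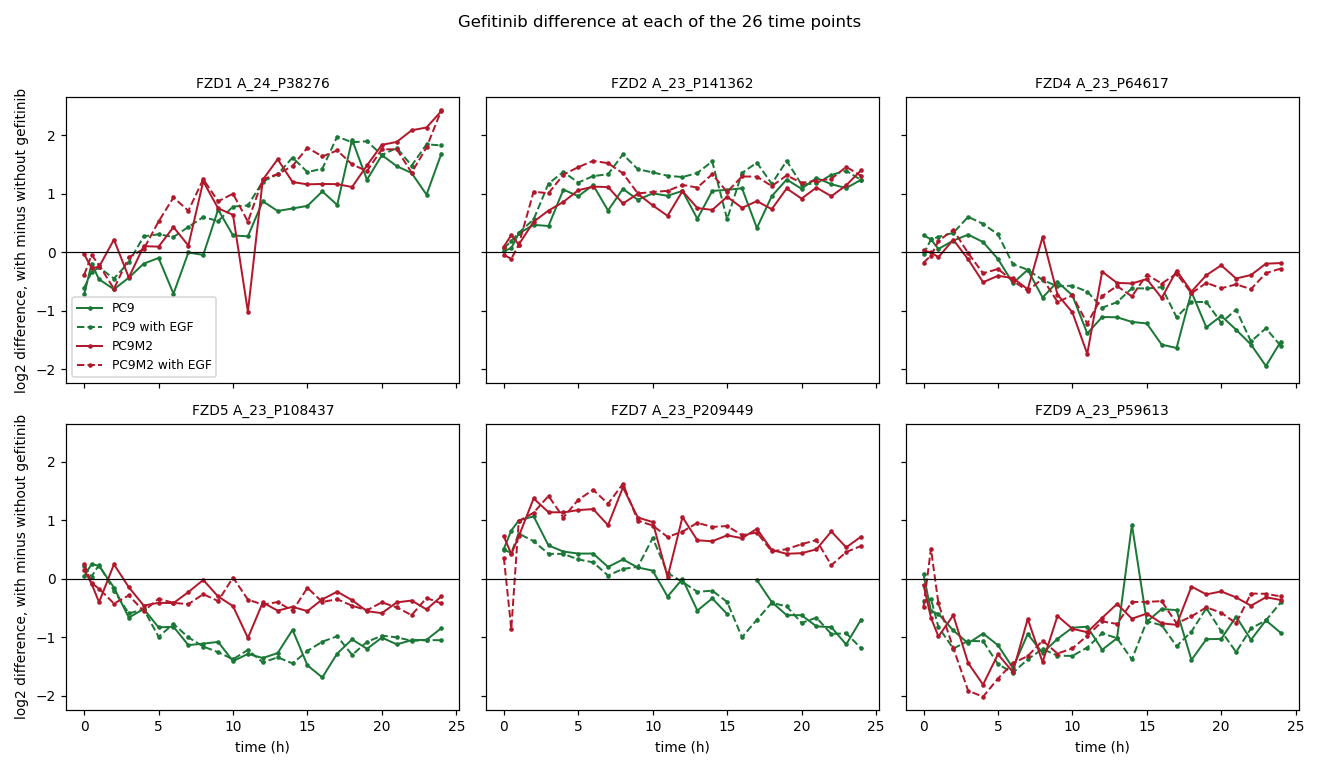
Log2 difference between cells with and without gefitinib (vertical axis) at each time point (horizontal axis, hours) for 6 Frizzled probes, in PC9 and PC9M2, without EGF (solid) and with EGF (dashed). FZD7 in PC9 goes from a mean of 0.85 at 0 to 2 h to -0.64 at 17 to 24 h, whereas in PC9M2 it goes from 0.81 to 0.60, and FZD1 climbs to 1.39 and 1.77 at 17 to 24 h in PC9 and PC9M2.

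FZD2, a receptor of both the β-catenin and the calcium branch, rose in each of the 4 gefitinib comparisons. It had signals of 9.80 to 11.14 (median 10.60) in untreated PC9 and of 10.44 to 12.11 (median 11.40) in PC9 with gefitinib. In PC9M2 they were 9.89 to 10.99 (median 10.57) untreated and 10.65 to 11.78 (median 11.42) with gefitinib. FZD2 rose by 0.87 in PC9 (SE 0.07, adjusted p = 5.57e-11) and by 0.83 in PC9M2 (SE 0.06, adjusted p = 5.68e-12), with all 26 time points positive for either line although the ranges overlap. With EGF the rises were 1.15 (SE 0.08) and 1.09 (SE 0.08). The responses of the lines differed by -0.03 (95% confidence interval -0.15 to 0.08) without EGF and by -0.06 (-0.17 to 0.05) with EGF. The lines were not called different for FZD2 under any treatment, with intervals that lay between -0.27 and 0.17. The rise came early, with a mean of 0.22 in PC9 and 0.26 in PC9M2 at 0 to 2 h and of 0.90 and 0.95 at 3 to 8 h.

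FZD1, a close relative of FZD2 and FZD7, was read by a bright and a dim probe. On the bright probe A_24_P38276 the signal ran from 7.32 to 8.87 (median 8.02) in untreated PC9 and from 7.05 to 9.61 (median 8.64) with gefitinib. In PC9M2 it ran from 7.16 to 10.15 (median 8.5) and from 8.20 to 10.26 (median 9.48). FZD1 rose by 0.50 in PC9 (SE 0.15, adjusted p = 0.00441) and by 0.85 in PC9M2 (SE 0.17, adjusted p = 6.63e-05), and the responses differed by 0.35 (SE 0.11, adjusted p = 0.0165, 23 of 26 time points). With EGF the rises were 0.90 and 0.99, and their difference of 0.09 was not called (adjusted p = 0.284). The rise was late in both lines. At 0 to 11 h PC9 gave a difference of -0.17 (adjusted p = 0.235) and PC9M2 one of 0.12 (adjusted p = 0.561), whereas at 12 to 24 h it was 1.18 (adjusted p = 2.4e-07) and 1.58 (adjusted p = 1.19e-08). The change from the early to the late time points was not itself tested, here or for the other genes. Between the lines the bright FZD1 probe was higher in PC9M2 by 0.38 without treatment (SE 0.10, adjusted p = 0.0015), by 0.73 with gefitinib, 0.44 with EGF and 0.53 with both.

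The dim FZD1 probe A_23_P134502 was well above background on 7 to 22 arrays of a course and was not called between the lines under any treatment, with differences of -0.17 to 0.14. It rose with gefitinib in PC9M2 by 0.53 (SE 0.16, adjusted p = 0.00481) and was not called in PC9 (0.34, adjusted p = 0.16), and with normexp both values were 0.03. Its difference between the lines was below that of the bright probe by 0.72 under gefitinib and by 0.39 with both agents, and by 0.55 and 0.45 without treatment and with EGF, where the sign-flip test described below for FZD5 did not pass.

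FZD5 signals through β-catenin and has FZD8 as its closest relative, which was near background throughout. The response to gefitinib was more positive in PC9M2 on all 3 FZD5 probes, whereas the difference between the untreated lines was not of one sign. On probe A_23_P397999 untreated PC9 had signals of 8.90 to 10.98 (median 10.50) and untreated PC9M2 of 10.40 to 11.75 (median 10.87). On probe A_23_P108437 the ranges were 8.32 to 10.02 (median 9.57) and 8.74 to 10.34 (median 9.27), and on probe A_24_P148503 they were 5.63 to 7.69 (median 6.69) and 5.87 to 8.17 (median 6.54). The medians therefore stood higher in PC9M2 on the first probe and lower on the other 2, with overlap on each.

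For the same RNA, the lines differed by 0.61 on probe A_23_P397999 (SE 0.13, adjusted p = 0.000137), and the values on the other 2 probes, -0.10 and -0.14, were not called. With gefitinib all 3 probes called FZD5 higher in PC9M2, by 1.15 (SE 0.10), 0.46 (SE 0.08) and 0.41 (SE 0.16). The gap between probe A_23_P397999 and probe A_23_P108437 was tested directly by a two-sided sign-flip permutation test over the 26 time points, adjusted over 24 such tests of FZD1, FZD4 and FZD5. It was 0.71 without treatment (SE 0.14, adjusted p = 0.00024, 21 of 26 time points), 0.69 with gefitinib, 0.66 with EGF and 0.66 with both. Against probe A_24_P148503 it was 0.75, 0.75, 0.73 and 0.66. All 8 of these tests passed, with adjusted p-values up to 0.00436.

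The disagreement was wide at the start of the courses. At 0 to 2 h the lines differed on probe A_23_P397999 by 1.68 without treatment, whereas on probes A_23_P108437 and A_24_P148503 they differed by 0.34 and 0.32. At 17 to 24 h the values were 0.31, -0.46 and -0.76. In untreated PC9 all 3 probes climbed over time, with fitted ranges of 1.98, 1.51 and 1.59 and the lowest point of the fit at 0 h. In untreated PC9M2 the fitted ranges were 0.63, 0.96 and 1.00. Each of these 6 courses passed the test for change over time.

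**Figure D5:**
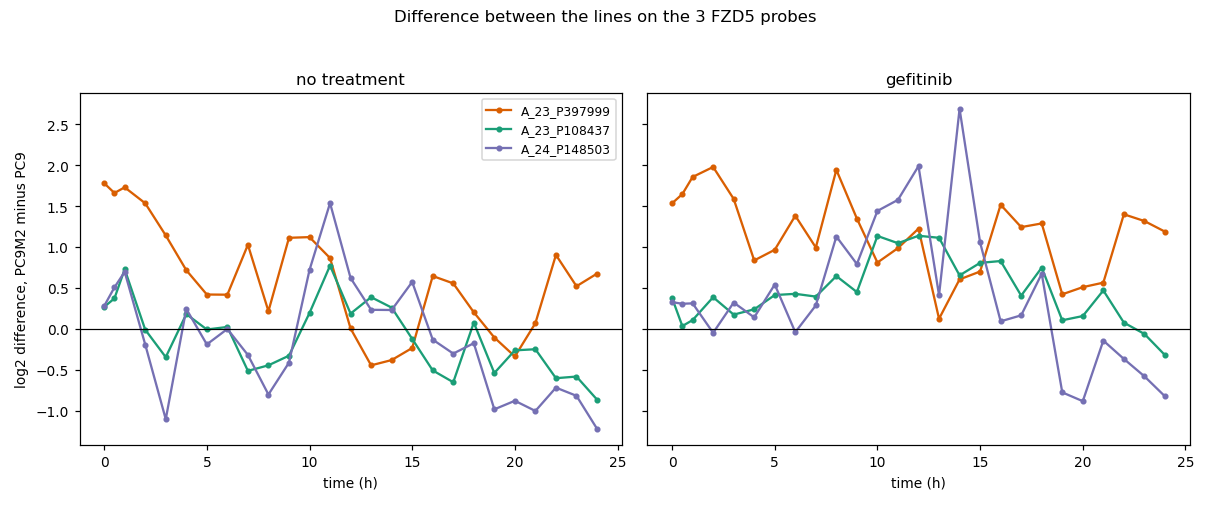
Log2 difference between PC9M2 and PC9 (vertical axis) at each time point (horizontal axis, hours) on the 3 FZD5 probes, without treatment (left) and with gefitinib (right). Probe A_23_P397999 starts far above the other 2, at a mean of 1.68 at 0 to 2 h without treatment, crosses them around the middle of the untreated course and lies above them again late.

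With gefitinib FZD5 fell in PC9 on every probe, by a log2 difference of -0.91 on A_23_P108437 (SE 0.10, adjusted p = 4.34e-09), -0.95 on A_24_P148503 (SE 0.10, adjusted p = 4.48e-09) and -0.53 on A_23_P397999 (SE 0.10, adjusted p = 3.01e-05). In PC9M2 the first 2 gave -0.36 (SE 0.05, adjusted p = 1.28e-06) and -0.40 (SE 0.09, adjusted p = 0.000246), whereas A_23_P397999 gave 0.02 (95% confidence interval -0.11 to 0.15) and was not called. The responses of the lines differed by 0.56, 0.55 and 0.54 on the 3 probes without EGF and by 0.56, 0.63 and 0.57 with EGF, in the order A_23_P108437, A_24_P148503 and A_23_P397999. These 6 differences passed, with adjusted p-values from 4.34e-06 to 0.0019. With normexp all 6 still passed, but the differences without EGF were 0.41, 0.13 and 0.42, so that the dimmer probe A_24_P148503 no longer matched the other 2 in size. In the last 13 time points they were 0.74, 0.62 and 0.77 without EGF, and in the first 13 none of the 3 was called.

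FZD4, a receptor for Wnts and for Norrin that works with TSPAN12, was lower in PC9M2 on its bright probe. On probe A_23_P64617 untreated PC9 ran from 10.80 to 12.31 (median 11.61) and untreated PC9M2 from 9.28 to 11.07 (median 9.94). With gefitinib the ranges were 10.18 to 11.53 (median 10.78) and 9.19 to 10.03 (median 9.61). The lines overlapped without treatment only through the PC9M2 array at 11 h, without which the highest PC9M2 signal was 10.37, and were apart with gefitinib, with EGF and with both. FZD4 was 2.98-fold lower in PC9M2 without treatment (log2 difference -1.58, SE 0.08, adjusted p = 8.65e-16), 2.30-fold lower with gefitinib, 2.68-fold lower with EGF and 2.55-fold lower with both, at 26 of 26 time points in each case. Gefitinib lowered it in PC9 by a log2 difference of -0.79 (SE 0.13, adjusted p = 7.36e-06) and in PC9M2 by -0.41 (SE 0.08, adjusted p = 4.97e-05).

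In PC9 the fall of FZD4 on this probe was late, with -0.24 (adjusted p = 0.157) at 0 to 11 h and -1.33 (adjusted p = 7.52e-09) at 12 to 24 h. The difference between the responses of the lines was 0.38 overall (SE 0.13, adjusted p = 0.0298) without EGF, and with EGF it was 0.07 (adjusted p = 0.584). In the last 13 time points it was 0.91 (adjusted p = 4.45e-05) and 0.46 (adjusted p = 0.00349), whereas in the first 13 with EGF it was -0.32 (adjusted p = 0.0188).

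The second FZD4 probe, A_24_P278621, was dim and often went the other way. It was well above background on 9 to 22 arrays of a course, with medians of 4.43 to 5.09 and single arrays from 2.06 to 7.09. Between the lines it gave -0.46 without treatment (adjusted p = 0.0426), 0.60 with gefitinib (adjusted p = 0.00404), -0.40 with EGF (adjusted p = 0.0313) and 0.33 with both (adjusted p = 0.0754). With gefitinib it rose in PC9M2 by 0.60 (SE 0.13, adjusted p = 0.00019) and fell in PC9 by 0.45 (SE 0.17, adjusted p = 0.023). Its difference between the lines lay above that of A_23_P64617 by 1.12 without treatment and by 1.80 with gefitinib, and the sign-flip test passed in all 6 comparisons (adjusted p from 4e-05 to 0.049). With normexp background correction its values were at most 0.11 in size. Between the lines it gave -0.04 without treatment and -0.05 with EGF, neither called, and 0.07 with gefitinib, for gefitinib it gave 0.06 in PC9M2 and -0.05 in PC9, and the responses differed by 0.11.

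FZD9, of the same subfamily as FZD4, was higher in PC9M2 and lower with gefitinib in both lines. Its signals ran from 6.62 to 7.86 (median 7.10) in untreated PC9 and from 6.93 to 8.55 (median 7.61) in untreated PC9M2, and with gefitinib from 5.70 to 7.92 (median 6.30) and from 6.59 to 7.51 (median 6.88). All groups overlapped. FZD9 was higher in PC9M2 by 0.51 without treatment (SE 0.08), 0.60 with gefitinib (SE 0.09), 0.50 with EGF (SE 0.08) and 0.68 with both (SE 0.08), at 23 to 25 of 26 time points. Gefitinib lowered it by a log2 difference of -0.83 in PC9 (SE 0.09, adjusted p = 1.18e-08) and of -0.73 in PC9M2 (SE 0.09, adjusted p = 3.46e-08, with all 26 time points negative), and by -1.0 and -0.82 with EGF. The responses of the lines differed by 0.09 (95% confidence interval -0.14 to 0.32) without EGF and by 0.18 (0.01 to 0.35) with EGF, and neither was called. The fall was largest at 3 to 8 h, with means of -1.15 in PC9 and -1.38 in PC9M2. In that period untreated FZD9 was near its peak at 6 h in both lines.

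FZD3 and FZD6 both lie on chromosome 8 and are known mainly from planar cell polarity. With gefitinib they moved in opposite directions. FZD3 had signals of 5.56 to 8.09 (median 6.64) in untreated PC9, 5.78 to 8.41 (median 6.91) with gefitinib, 5.91 to 7.48 (median 6.80) in untreated PC9M2 and 6.36 to 8.02 (median 7.30) with gefitinib. FZD3 rose by 0.40 in PC9 (SE 0.13, adjusted p = 0.0088) and by 0.55 in PC9M2 (SE 0.09, adjusted p = 9.84e-06), and by 0.38 and 0.65 with EGF, where 1 outlier-flagged spot of PC9 with both agents left 25 time points in PC9. This rise, too, lay late, at 0.78 and 0.86 in the last 13 time points against 0.02 and 0.24 in the first 13, where neither was called. FZD3 was higher in PC9M2 by 0.31 with gefitinib (adjusted p = 0.0129) and by 0.40 with both agents (adjusted p = 0.000527), and was not called without gefitinib (0.16 and 0.12).

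FZD6, a receptor often described as restraining β-catenin signalling, had signals of 8.83 to 11.10 (median 9.93) in untreated PC9 and of 7.79 to 10.35 (median 9.55) in untreated PC9M2. With gefitinib they were 8.04 to 10.65 (median 9.35) and 8.29 to 10.02 (median 9.24). FZD6 fell by 0.56 in PC9 (SE 0.10, adjusted p = 1.57e-05, lower at 23 of 26 time points) and by 0.26 in PC9M2 (SE 0.10, adjusted p = 0.0211). The mean difference between the lines was negative early and positive late without treatment, with EGF and with both agents. The late values without treatment and with EGF were not called. Without treatment FZD6 in PC9M2 stood at -0.92 relative to PC9 in the first 13 time points (adjusted p = 0.00361) and at 0.07 in the last 13 (adjusted p = 0.696). With EGF the early and late time points gave -1.07 (adjusted p = 0.000987) and 0.22 (adjusted p = 0.131), and with both agents -1.03 and 0.16. The averages over 24 h, -0.42, -0.42 and -0.43, passed with adjusted p-values of 0.0315, 0.0421 and 0.046, and with gefitinib alone the average was -0.13 (adjusted p = 0.525).

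EGF gave smaller differences than gefitinib did. In PC9, EGF lowered 3 of the 12 probes (background 22.0% in either direction), and in PC9M2 it lowered 2 (7.05%). FZD1 probe A_24_P38276 fell by 0.32 in PC9 (SE 0.05, adjusted p = 3.32e-05) and by 0.26 in PC9M2 (SE 0.08, adjusted p = 0.0368). FZD2 fell by 0.18 (SE 0.04, adjusted p = 0.00212) and by 0.14 (SE 0.04, adjusted p = 0.0158), and FZD4 probe A_23_P64617 fell by 0.22 in PC9 (SE 0.05, adjusted p = 0.00207) and was not called in PC9M2, a difference between the lines that was not tested. None of these EGF calls passed without the pairing of time points or with time points 3 h apart, and those in PC9M2 also failed with autocorrelation. In the presence of gefitinib EGF changed 0 of the 12 probes in PC9, where limma called 0% of all probes, and 0 of 12 in PC9M2, where it called 2.59%. At an unadjusted p under 0.05 these were 0 Frizzled probes in PC9 (3297 probes in all) and 4 in PC9M2 (5503 in all), and the methods' t-test, run on the matched time points with the same adjustment, called 6 probes in PC9 and 778 in PC9M2.

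Change over the 24 h was tested in each course. A natural cubic spline of time called 10 of 12 in untreated PC9 (background 63.2%), 10 in untreated PC9M2 (61.4%), 10 in PC9 with gefitinib (72.6%) and 8 in PC9M2 with gefitinib (59.4%). With EGF it called 11 in PC9 (76.0%) and 11 in PC9M2 (70.4%), and with both agents 11 (79.7%) and 9 (64.4%). Each time point had its own slide, so that slide and time cannot be told apart. With scan day as a random block 3 of 12 Frizzled probes were called in PC9M2 with gefitinib and 5 with both agents, and 6679 of all probes in PC9M2 with gefitinib. FZD6 changed over time in 7 of the 8 courses, with the peak of the fit at 0 h and fitted ranges of 1.14 to 1.92, and was not called in PC9M2 with both agents (adjusted p = 0.214). FZD4 probe A_23_P64617 rose in untreated PC9 (range 1.16, peak of the fit at 19 h) and was not called in PC9M2 with gefitinib (0.24, adjusted p = 0.572) and with both agents (0.16, adjusted p = 0.656). FZD9 changed over time in the 4 courses without gefitinib, with ranges of 0.73 to 1.27, and was called in only 1 of the 4 courses with it. FZD7 was not called in untreated PC9M2 (0.65, adjusted p = 0.0593), but was without the array at 11 h (0.60, adjusted p = 0.0247).

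Partners of the receptors were taken from 7 lists of 56 genes, of which 39 were tested at the most variable probe of each gene. Without treatment 16 of the 39 were higher in PC9M2 (background 30.9% of all genes at 1 probe a gene) and 11 were lower (36.8%), and with gefitinib 15 (30.6%) and 9 (34.2%). Genes called in all 4 treatments were 9 higher (background 22.5%) and 5 lower (25.3%). These counts are read only beside those shares. Those higher included SMO (differences of 3.10 to 3.36), the Hedgehog receptor component related to Frizzled in sequence, LRP5 (0.45 to 0.80), a Frizzled co-receptor, DAAM1 (1.13 to 1.5), a formin that links Dishevelled to actin, PORCN (0.67 to 1.07), which acylates Wnts, and SFRP1 (1.35 to 1.80), a secreted Wnt binder. Those lower included DVL2 (-0.46 to -0.30) and DVL3 (-0.93 to -0.82), which carry the Frizzled signal, and the planar cell polarity gene PRICKLE2 (-2.33 to -0.80). The feedback targets of β-catenin were split, with LEF1 (1.43 to 1.57) and DKK1 (1.28 to 1.70) higher and NKD2 (-1.73 to -1.30) and SP5 (-1.33 to -1.12) lower.

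With gefitinib 16 of the 39 partner genes were higher (background 35.0%) and 10 were lower (37.0%) in PC9, and 12 were higher (32.4%) and 7 were lower (34.0%) in PC9M2. In both lines, with and without EGF, 10 were higher (25.9%) and 6 were lower (26.4%). AXIN2, a feedback target of β-catenin, rose by 2.82 in PC9 (SE 0.22) and by 2.96 in PC9M2, and LRP5 by 0.75 and 0.52. The feedback targets were split, since TCF7 was lower in both lines with and without EGF (-0.37 to -0.22). Without EGF, 3 of the 8 tested feedback targets were called higher and 3 lower in PC9, and 2 higher and 1 lower in PC9M2. These counts, too, are read only beside the shares above. ZNRF3, the ligase that removes Frizzled from the surface, fell by 2.22 in PC9 and by 1.06 in PC9M2, and the responses of the lines differed by 1.16 without EGF and 0.55 with EGF. Of the alternative Wnt receptors, RYK and ROR1 fell and PTK7 rose in both lines. RNF43, the other such ligase, rose in PC9M2 by 0.66 and was not called in PC9 without EGF (0.52). It was well above background on only 86 arrays of the series, and this contrast of calls is no test of a difference between the lines. The median difference of the 39 genes was 0.07 for PC9 and 0.10 for PC9M2.

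The genes with time patterns most like each receptor were sought over all arrays of the 8 courses after the mean of each course was subtracted, at 1 probe per gene among 13275 other genes. They are given as descriptions, since points of the same slide and neighbouring hours share their source. FZD3 was nearest to NR3C1 (Pearson r = 0.82) and SMIM3 (0.73), FZD6 to PRELID3B (0.85) and RNF138 (0.82), and FZD7 to MFN2 (0.72) and ABCC2 (0.69). FZD2 was nearest to VARS2 (0.77) and LY6G5C (0.75), FZD4 to ATP1B3 (0.78) and SEC61A2 (0.78), and FZD5 to KLHL25 (0.79) and MRPS6 (0.77). FZD9 was nearest to LRRN2 (0.66) and POMGNT2 (0.63), and the dim probe of FZD1 to SLC16A11 (0.43) and REEP1 (0.43). Within the family the highest value was between FZD4 and FZD7 (0.50) and the lowest between FZD5 and FZD6 (-0.48).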

How the data were processed

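The labels give total RNA labelled with Cy3 from both lines, hybridised to 1-colour Agilent arrays, with 1 array for each time point of 8 courses. The deposited scanner files hold spot intensity, per the file headers from Agilent Feature Extraction 10.5.1.1, and the background-subtracted processed signal was used. It was quantile normalized over non-control features, floored at 1, put on the log2 scale and averaged over the spots of a probe, leaving out outlier-flagged spots (0.263% of spots). Probes were named through RefSeq accessions, which matched 24794 of 41000 probes. A probe was tested if it was well above background on 13 of 26 arrays of a course. Differences at matched time points were tested with limma 3.58.1 in R 4.3.3, two-sided, with Benjamini-Hochberg adjustment over 29941 probes at 0.05, and change over time by an F-test of a natural spline (4 degrees of freedom). Probes of a gene were compared by a sign-flip permutation test of 100000 resamples. The array number limits the precision. Time points of a course are not stated to be separate cultures. Scripts were tested on simulated data.

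Partner genes were named where called in all 4 comparisons of a kind, apart from RNF43, which was chosen after its values were seen, as were VWF, PECAM1 and CD68. The 2 genes with the highest Pearson correlation to each receptor were named. The members and lists were chosen with earlier results of these data known. The files hold no mean signal, so that the normexp alternative used the median signal. The deposited series table holds the authors' quantile-normalized intensity on a linear scale and was an alternative only. The array at 11 h was left out as an alternative chosen after seeing the data.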

Additional observations from a re-analysis of the deposited data

Results flagged for a closer look

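The response to gefitinib differed between PC9M2 and PC9 by limma's test of the difference itself for 13 combinations of probe and EGF status, each with a more positive value in PC9M2. These were 7 of 12 probes without EGF, where 14.6% of all probes were called more positive and 15.3% more negative. With EGF they were 6 of 12, against 21.2% and 23.1%. The combinations include several probes of FZD4 and of FZD5 and are not separate genes. For FZD7 the difference was 0.84 log2 without EGF (adjusted p = 7.68e-07, 23 of 25 time points) and 0.92 with EGF (adjusted p = 8.66e-07, 24 of 26). For FZD5 it was 0.56 and 0.56 on probe A_23_P108437, 0.54 and 0.57 on probe A_23_P397999, and 0.55 and 0.63 on probe A_24_P148503, without and with EGF. For FZD4 it was 1.05 and 0.73 on the dim probe A_24_P278621 (0.11 and 0.07 with normexp), and 0.38 without EGF on probe A_23_P64617 (adjusted p = 0.0298, 16 of 26 time points). FZD1 probe A_24_P38276 differed by 0.35 without EGF (adjusted p = 0.0165, 23 of 26 time points), and FZD3 by 0.25 with EGF (adjusted p = 0.0197, 18 of 25 time points). Comparisons without and with EGF use different arrays of the same slides.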

How the results depend on the processing

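Over all alternatives, 636 of 708 values between the lines, 283 of 312 for gefitinib alone, 276 of 300 for gefitinib with EGF and 287 of 312 for the difference of responses counted as unchanged. That meant the same direction and side of the threshold, except in the one-sided test for higher between the lines. There a probe called lower in the main test counted as unchanged when it was not called. Alternatives such as the deposited table (48 of 48 between the lines) reuse nearly the same values. Fewer were unchanged with autocorrelation (37 of 48), time points 3 h apart (36), scan day (35) and the last 13 time points (33). Called Frizzled probes fell between the lines without treatment from 7 to 3 in the last 13 time points, to 4 with a variance inflated for autocorrelation and to 4 with scan day as a random block. Calls over all tested probes fell there too, from 19592 to 16628, 14781 and 14160. Numbers in brackets in the rest of this paragraph are such calls over all probes, and the Frizzled counts are read only beside them. With EGF the Frizzled calls fell from 7 to 3, 3 and 4 with time points 3 h apart, autocorrelation and scan day (from 20295 to 11792, 14432 and 13669). With both agents they fell from 9 to 5 with scan day (from 19781 to 13494). For gefitinib in PC9 they fell from 10 to 6 with time points 3 h apart, in the first 13 and with autocorrelation (from 20353 to 13048, 15249 and 16397). For gefitinib in PC9M2 they fell from 11 to 7 with time points 3 h apart and 6 in the first 13 (from 19068 to 14346 and 11180). With EGF they fell from 11 to 7 in the first 13 (from 21685 to 16040). The difference of responses fell in the first 13 from 7 to 1 (from 8973 to 1958) and, with EGF, from 6 to 2 (from 13249 to 4624). Without the pairing of time points, that is with no replicate block, the EGF calls fell from 3 to 0 in PC9 (from 6601 to 672). In PC9M2 they fell from 2 to 0 (from 2111 to 93), and the difference of responses kept 5 without EGF (3734) and 5 with EGF (4739). EGF calls in PC9 were also 0 with time points 3 h apart (779) and 1 in the last 13 (3565). In PC9M2 they were 1 with no filter (1788) and 0 with time points 3 h apart (13), in the first 13 (59), in the last 13 (3100) and with autocorrelation (878). EGF under gefitinib in PC9M2 gave 0 calls in the main setting (774). It gave 1 call with normexp (930), a floor of 16 (794), a filter for all 26 arrays (739), the last 13 (885), the methods' t-test (778), and 1 probe a gene (429 of 13276). With scan day as a block, change over time was called for 6 Frizzled probes in untreated PC9M2 (9088), 3 with gefitinib (6679), 7 with EGF (12186) and 5 with both (8941), and for 6 in PC9 with both (13696). With 3 spline degrees of freedom it was 5 in PC9M2 with gefitinib (15924).

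Directions turned in the first 13 time points for FZD4 probe A_24_P278621 between the untreated lines (0.035) and with gefitinib in PC9 (0.10, and 0.12 with EGF). They also turned there for gefitinib in PC9 for FZD1 probe A_24_P38276 (-0.17) and FZD7 (0.45, and 0.39 with EGF), and for the difference of responses on FZD4 probe A_23_P64617 (-0.16, and -0.32 with EGF). In the last 13, the sign of FZD6 turned between the lines (0.075 untreated, 0.22 with EGF, 0.16 with both), and the untreated and EGF values were not called. With normexp the gap between FZD5 probes A_23_P397999 and A_24_P148503 under gefitinib in PC9 turned to -0.18. The cause was not tested. The FZD6 difference with both agents also lost its call under 7 other alternatives. Leaving out the untreated PC9M2 array at 11 h, an alternative chosen after seeing the data, changed 1 call, that of FZD7 over time given above. Signal over background limits the dim probes FZD1 A_23_P134502, FZD4 A_24_P278621 and FZD5 A_24_P148503.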
